A study of Mus musculus with 9 samples.

Results

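The genes of the cytosolic ribosomal proteins were followed in cultured mouse cortical neurons that had been given bicuculline, given KCl or left untreated. Members were the array probes whose RefSeq identifier led to a mouse symbol that begins with Rpl or Rps and a digit, or to Rplp0, Rplp1, Rplp2 or Rpsa, without the Rps6k kinases and without symbols ending in -ps. The array held 121 such probes for 84 genes, out of 41174 probes and 18327 named genes. Of these, 119 probes and 83 genes passed the filter on dim probes and were tested, out of 20990 named probes and 14061 genes. The gene that did not pass was Rpl39l, a paralog of Rpl39, whose probes were well above background on 1 array at most. A further 11 RefSeq symbols that meet the rule had no named probe and were not analysed here. The 83 tested genes comprised 43 for proteins of the large subunit, 30 of the small subunit, the 3 stalk genes, and 7 that are paralogs or otherwise stand apart from the standard set (Rpl3l, Rpl7l1, Rpl22l1, Rpl36al, Rps4l, Rps27l and Rps19bp1).

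The cells were cortical neurons of C57bl/6 mice, taken at embryonic day 15 and held for 12 days in culture. The bicuculline group received 25 µM of this blocker of GABA-A receptors for 6 h, the KCl group received 50 mM KCl, which depolarises the membrane, for 6 h, and the control group received neither. Each group had 3 arrays of total RNA labelled with a single dye. The labels do not say whether the arrays of a group came from separate cultures, so the p-values describe how far these arrays lie apart, and that spread may be technical.

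Ribosomal proteins wrap and stabilise the ribosomal RNA of both subunits and are mostly needed in equal numbers, and their genes are usually described as a co-regulated family with abundant messages. Most of these messages start with a C followed by a run of pyrimidines, the terminal oligopyrimidine (TOP) tract, through which the kinase mTOR and the RNA-binding protein Larp1 control their translation. In neurons, ribosomal protein messages are also found in dendrites and axons.

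The promoter windows of RefSeq (build GRCm38.p6) matched 64 of the 84 genes and were searched for a C followed only by C or T, at least 8 bases long in all, on the gene's strand and starting between 20 bases before and 50 bases after the annotated start. Such a tract was present in 49 of the 64 members (76.6%), against 22.7% of the 27025 genes in the table. The letters CCGGAAG, the core of an ETS-type site, stood on either strand of the window from 250 bases before to 50 bases after the start in 40.6% of members and 9.93% of all genes. The letters AAGATGGC, of a YY1-type site, stood in 9.38% of members and 3.19% of all genes over the same window and both strands. TATAAA was found on the gene's strand in the 50 bases before the start in 1.56% of members and 3.15% of all genes. None of these motifs was required to be free of overlap with another. The windows below are shown because they belong to members whose values are given below, namely large changes, called falls, the stalk, genes outside the standard set and genes with several probes, and they let the tract be compared between genes; the tract is in capitals, and the 3 shown last hold none.
Rpl37a, chr1:72711276-72711305, plus strand: cattgcgtCCCTTCCTCTTCggacttgggc
Rps12, chr10:23787180-23787209, minus strand: accgccggCCTTTTCCCCTgccgccgccga
Rplp2, chr7:141447639-141447668, plus strand: gtcagcgtCTTCCTTTCgccgccggacgcc
Rpl7a, chr2:26910787-26910816, plus strand: ccacaattCCCTCTTCTTTCTTTCTCCagc
Rpl14, chr9:120571501-120571530, plus strand: agggcgggCCCTCTCTCTTCTCgctgagcg
Rpl22l1, chr3:28805503-28805532, plus strand: agcccgttCTCTTCCCacggctgcagctca
Rplp0, chr5:115559452-115559481, plus strand: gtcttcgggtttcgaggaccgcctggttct
Rps19bp1, chr15:80264292-80264321, minus strand: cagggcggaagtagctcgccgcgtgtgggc
Rpl7l1, chr17:46782642-46782671, minus strand: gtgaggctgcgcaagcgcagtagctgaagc

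Values below are log2 of the deposited processed signal after each array's 75th percentile was subtracted, so 0 is the 75th percentile of that array, and the level of one probe is not compared with that of another. A gene is called where limma's p-value, adjusted over all 14061 genes by the Benjamini-Hochberg method, is under 0.05. Arrays differed in brightness before scaling, and 2 of the control arrays stood apart. Bicuculline arrays had a 75th percentile of 1805, 1995 and 2049 intensity units and KCl arrays one of 1679, 1628 and 1586, against 3087, 1804 and 2634 in control. Ribosomal protein messages are among the brightest on the array: between 65.4% and 73.1% of the members' spots on an array were read from the scanner's low-gain scan, which the software scales up for bright spots, against 4.20% to 7.21% of all spots. No spot was saturated. Cross-hybridisation to pseudogenes could not be assessed, and RefSeq lists 321 pseudogene symbols of this family.

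Bicuculline left most ribosomal protein messages without a called change. Of the 83 genes, 1 rose, 2 fell and 80 were not called, while 17.4% of all genes were called higher and 27% lower. The median log2 change over the members was 0.05, against -0.03 over all genes tested. Without control 2, 13 members were called higher and the median was 0.09, and without control 1 the median was -0.0090. The share of all genes called without control 2 is not given, so the 13 cannot be set against it. For 6 members every bicuculline array was above every control array and for 4 every one was below, patterns shown by 22.1% and 34.8% of all genes. Within slide 1, with 2 arrays of each group, 63 of 83 members were higher under bicuculline. The members' median there was 0.06, against -0.03 over all genes. Within slide 2, with 1 array of each, 48 were, with a median of 0.03, against -0.03 over all genes. The share of all genes that were higher within a slide is not given. In this bulk RNA, fewer cells of a type and less RNA per cell cannot be told apart.

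Rpl22l1, the paralog of the large-subunit protein gene Rpl22, was the member that rose. It read 4.69, 4.74 and 4.65 on the bicuculline arrays, against 4.27, 4.49 and 4.41 on the control arrays. All bicuculline arrays were above all control arrays, and the log2 change was 0.30 ± 0.06 (limma standard error, adjusted p = 0.0030, n = 3 arrays each), a 1.23-fold rise. It was called higher under 5 of the 6 scalings tried, with log2 changes between 0.27 and 0.34. In the 6 bicuculline and control arrays alone with the replicate number as a block, it remained called (limma, adjusted p = 0.012).

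The 2 members that fell under bicuculline were Rps4l and Rpl14. Rps4l, which RefSeq lists as a transcribed pseudogene, read -0.03, -0.10 and -0.01 on the bicuculline arrays, against 0.05, 0.15 and 0.11 on the control arrays. Its log2 change was -0.15 ± 0.04 (limma, adjusted p = 0.023). Rpl14, which encodes a large-subunit protein, read 0.04, 0.08 and 0.16 on the bicuculline arrays, against 0.20, 0.21 and 0.22 on the control arrays. Its log2 change was -0.11 ± 0.03 (limma, adjusted p = 0.029). The arrays of the 2 groups did not overlap for either gene, but both changes were small. With the replicate number as a block in those 6 arrays, neither was called (limma, adjusted p = 0.063 for Rps4l and 0.064 for Rpl14), while Rps7, for a small-subunit protein, was called higher (0.21, adjusted p = 0.048).

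**Figure D1:**
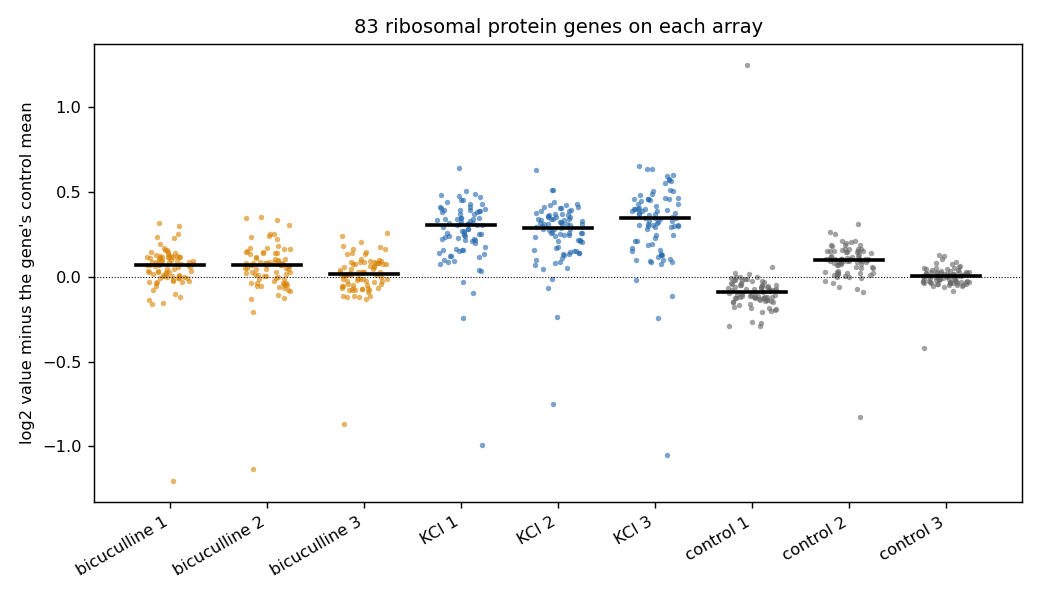
Each dot is one of the 83 tested members on one array, as its log2 value minus its mean over the 3 control arrays, and the black bar is the median; arrays are grouped as bicuculline, KCl and control. The KCl medians lie above those of the bicuculline and control arrays, and the control arrays differ among themselves.

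KCl gave higher values across the family when arrays were scaled to their 75th percentile. Of the 83 genes, 73 were called higher, 1 was called lower and 9 were not called, while 35.8% of all genes were called higher and 36% lower. The median log2 change over the members was 0.31, a 1.24-fold rise, against 0.02 over all genes. For 73 members every KCl array was above every control array, a pattern shown by 37.2% of all genes. This count depends on the scaling: 21 members were called higher after scaling to the median, 19 after quantile normalization, 6 after scaling to the spike-in probes, 0 after another background correction (normexp) with the 75th percentile and 12 after normexp with quantile normalization. Of all genes, 20.9%, 28.1%, 15.6%, 13% and 26.9% were called higher under these 5 settings. The members' share was a little above that of all genes under median scaling and below it in the others. Called lower, in the same order, were 3, 5, 4, 1 and 4 members. Of all genes, 44.8%, 41.8%, 44.7%, 16.4% and 39.5% were called lower, so fewer members than genes at large were called in that direction too.

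The deposited signals show where the scaling enters. Rplp0, the scaffold of the ribosomal stalk, had a deposited signal of 302725, 296012 and 317773 on the KCl arrays, against 325175, 254825 and 366115 on the control arrays. Before scaling these groups overlapped. After the 75th percentile was subtracted, Rplp0 read 7.49, 7.51 and 7.65 on the KCl arrays, against 6.72, 7.14 and 7.12 on the control arrays. All KCl arrays were then above all control arrays. The log2 change of 0.56 ± 0.11 (limma, adjusted p = 0.0020) was the largest of any member, and under the 6 scalings it lay between 0.17 and 0.56.

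The stalk genes, whose products recruit the translational GTPases, were all 3 called higher under KCl, with a median log2 change of 0.45. Rplp1 read 7.35, 7.38 and 7.57 on the KCl arrays, against 6.73, 7.31 and 6.96 on the control arrays (0.44 ± 0.17, limma, adjusted p = 0.046). Rplp2 read 7.38, 7.36 and 7.47 on the KCl arrays, against 6.83, 7.11 and 6.92 on the control arrays (0.45 ± 0.07, adjusted p = 7.9e-04). The KCl arrays lay above the control arrays for both, although control 2 came within a short distance for Rplp1. Rplp1 was called under 1 of the 6 scalings and Rplp2 under 2.

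Of the 43 large-subunit genes, 39 were called higher under KCl and 0 lower, with a median log2 change of 0.31. Rpl37a, for a zinc-binding protein of the large subunit, read 7.00, 6.92 and 7.10 on the KCl arrays, against 6.32, 6.67 and 6.54 on the control arrays. The arrays did not overlap, and the log2 change was 0.50 ± 0.09 (limma, adjusted p = 0.0010). Rpl21 had about the same change, 0.50 ± 0.15 (adjusted p = 0.017), from a dimmer probe that read 1.33, 1.31 and 0.93 on the KCl arrays, against 0.40, 0.94 and 0.73 on the control arrays. Here KCl 3 was slightly below control 2, so the groups overlapped. The 4 large-subunit genes not called were Rpl3, Rpl4, Rpl27a and Rpl30.

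Of the 30 small-subunit genes, 29 were called higher under KCl and 0 lower, with a median log2 change of 0.30. Rps12 read 6.98, 7.01 and 7.21 on the KCl arrays, against 6.41, 6.77 and 6.55 on the control arrays (0.49 ± 0.10, limma, adjusted p = 0.0032). Rps20 read 6.72, 6.75 and 6.70 on the KCl arrays, against 6.08, 6.31 and 6.33 on the control arrays (0.48 ± 0.07, adjusted p = 2.7e-04). Neither gene's groups overlapped, and the spread was wider among the control arrays than among the KCl arrays. Rps6, whose product is phosphorylated by the S6 kinases, changed by 0.12 (adjusted p = 0.024) and turned below 0 under the other 5 scalings. The gene not called was Rpsa, the laminin receptor precursor that also sits in the small subunit. Rpsa read 4.64, 4.54 and 4.61 on the KCl arrays, against 4.51, 4.46 and 4.49 on the control arrays (0.11 ± 0.05, adjusted p = 0.078), and its direction turned to lower under the other 5 scalings.

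**Figure D2:**
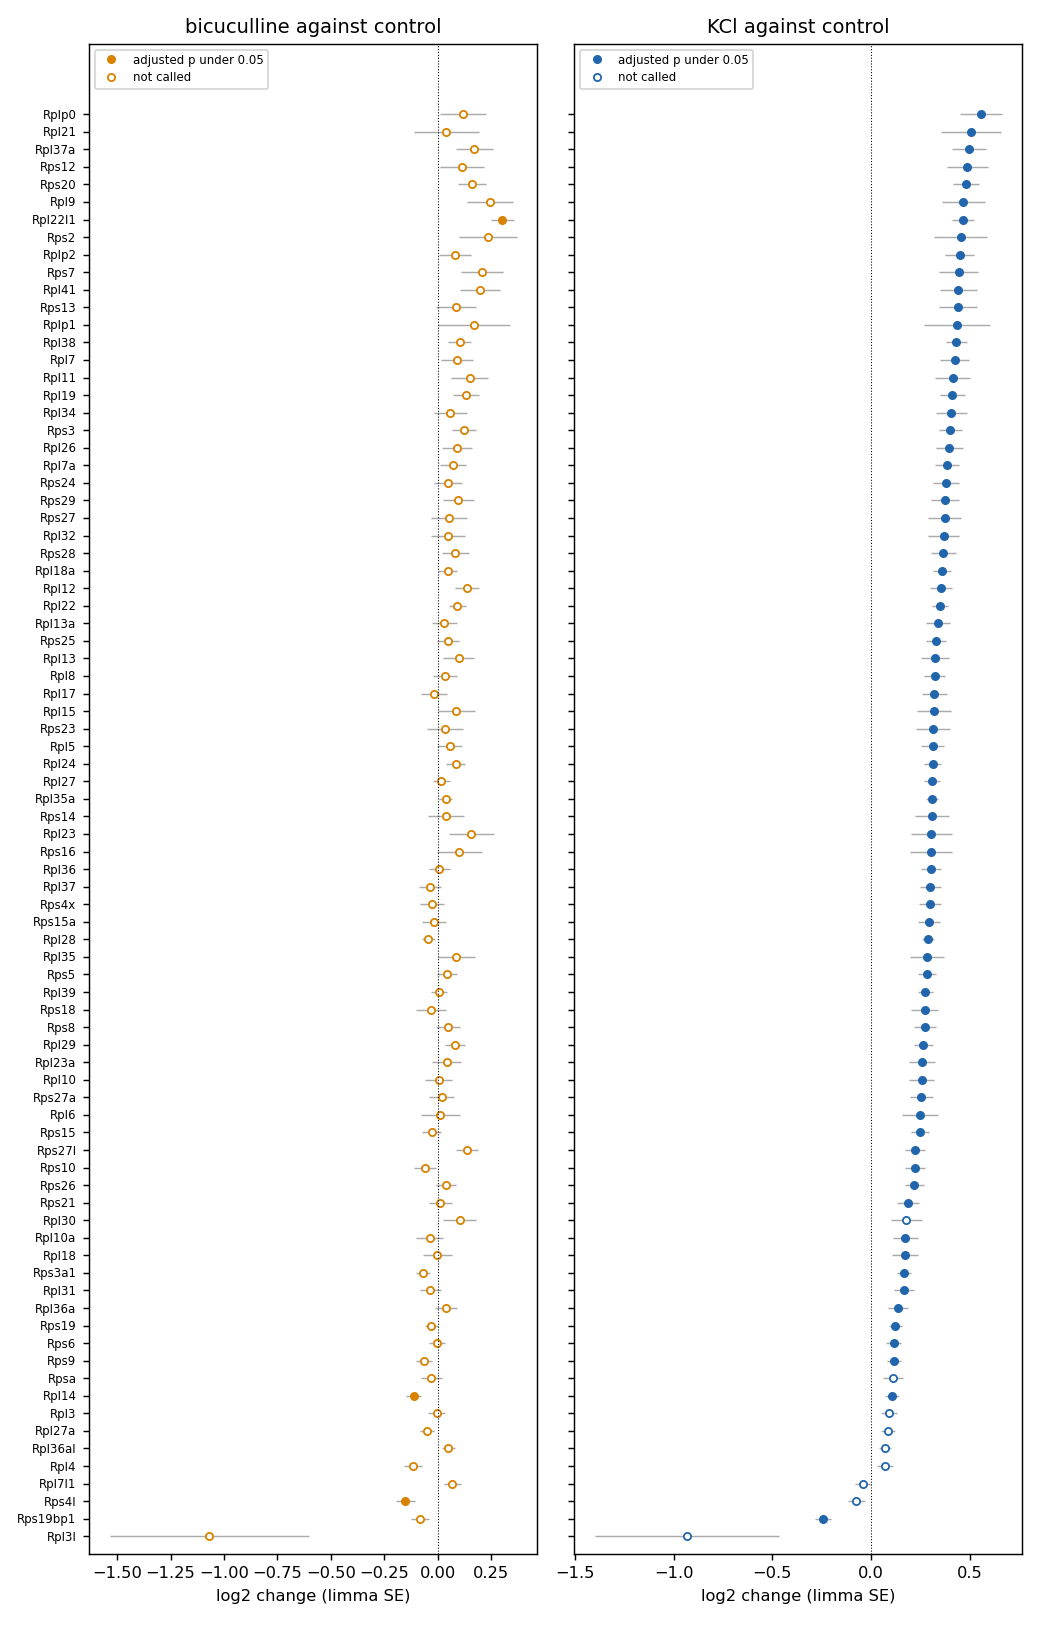
The log2 change of the members against control, 1 of them not drawn, is shown with its limma standard error, for bicuculline on the left and KCl on the right, in the order of the KCl change; filled points are called and open points are not. Under bicuculline 3 points are filled, and under KCl most are, with 1 filled point to the left of 0.

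The 7 genes outside the standard set were split under KCl, with 2 called higher, 1 lower and a median log2 change of -0.04. Rpl22l1 rose, with 4.86, 4.83 and 4.87 on the KCl arrays, against 4.27, 4.49 and 4.41 on the control arrays. These arrays did not overlap, and the log2 change was 0.47 ± 0.06 (limma, adjusted p = 1.2e-04). Rps27l, the paralog of Rps27, read 3.69, 3.62 and 3.77 on the KCl arrays, against 3.39, 3.53 and 3.50 on the control arrays (0.22 ± 0.05, adjusted p = 0.0049), but was called under 1 of the 6 scalings and had a change of -0.0047 after spike-in scaling. Rps19bp1, which encodes a nucleolar protein that binds Rps19 and is not part of the ribosome, fell. It read 2.82, 2.83 and 2.83 on the KCl arrays, against 3.04, 3.08 and 3.09 on the control arrays (-0.24 ± 0.04, adjusted p = 9.0e-04). It was called lower under all 6 scalings, with changes between -0.47 and -0.24.

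The other 4 of these genes were not called under KCl, although under other scalings Rpl3l was called lower in 3 of the 6, and Rps4l and Rpl7l1 in 2 each. Rpl7l1, the paralog of Rpl7, read 1.16, 1.12 and 1.17 on the KCl arrays, against 1.20, 1.21 and 1.16 on the control arrays (-0.04 ± 0.04, limma, adjusted p = 0.38). Rpl36al, a close copy of Rpl36a, read 2.26, 2.30 and 2.33 on the KCl arrays, against 2.20, 2.24 and 2.23 on the control arrays (0.07 ± 0.03, adjusted p = 0.074). Rps4l had a log2 change of -0.08 ± 0.04 (adjusted p = 0.15). Rpl3l, the form of Rpl3 known from skeletal and cardiac muscle, was near the bottom of the signal range, with -5.43, -5.19 and -5.49 on the KCl arrays, against -3.19, -5.26 and -4.85 on the control arrays. Control 1 alone was high for Rpl3l, and neither treatment was called against control under the 75th percentile.

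**Figure D3:**
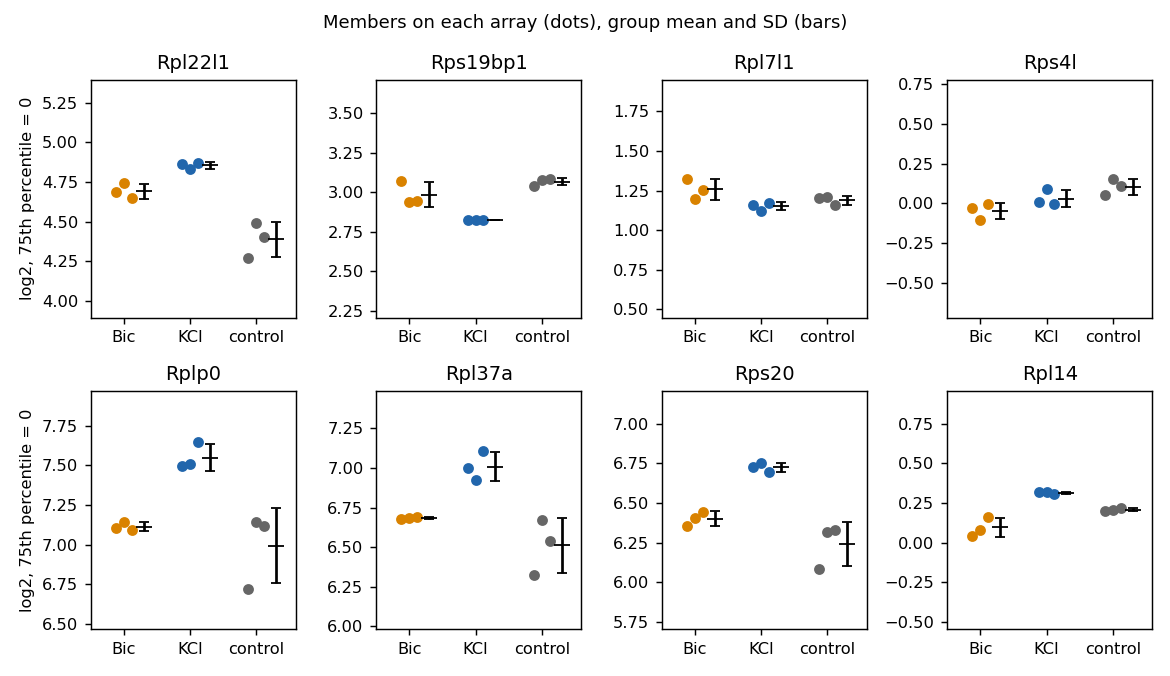
Dots give the log2 value (75th percentile of the array at 0) of 8 members on each array, with the group mean and SD beside them; groups run from bicuculline through KCl to control and each panel spans the same range of log2 units. Rpl22l1 is higher in both treated groups than in control, Rps19bp1 is lower under KCl, and control 1 is the lowest array for Rplp0, Rpl37a and Rps20.

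The size of the KCl change went with the brightness of the probe. Of the 28 brightest members, 28 were called higher with a median log2 change of 0.37, and of the next 27, 26 were, with 0.31. Of the 28 dimmest, 19 were called higher and 1 lower, with a median of 0.17. Over all genes in the same fit, 35.8% were called higher and 36% lower, with a median of 0.02. The 1336 other genes in the brightest 10% of all genes also leaned upward, with 787 called higher, 162 lower and a median of 0.17, while the 71 members there had a median of 0.31. Of the 8 members read from the normal scan on every array, 4 were called higher, and their median was 0.09. With control 2, the control array closest in brightness to the treated ones, as the only control array, the members' median was 0.21. This rests on 1 control array and carries no test. The part of array brightness and of the low-gain scan in the KCl result was not tested.

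**Figure D4:**
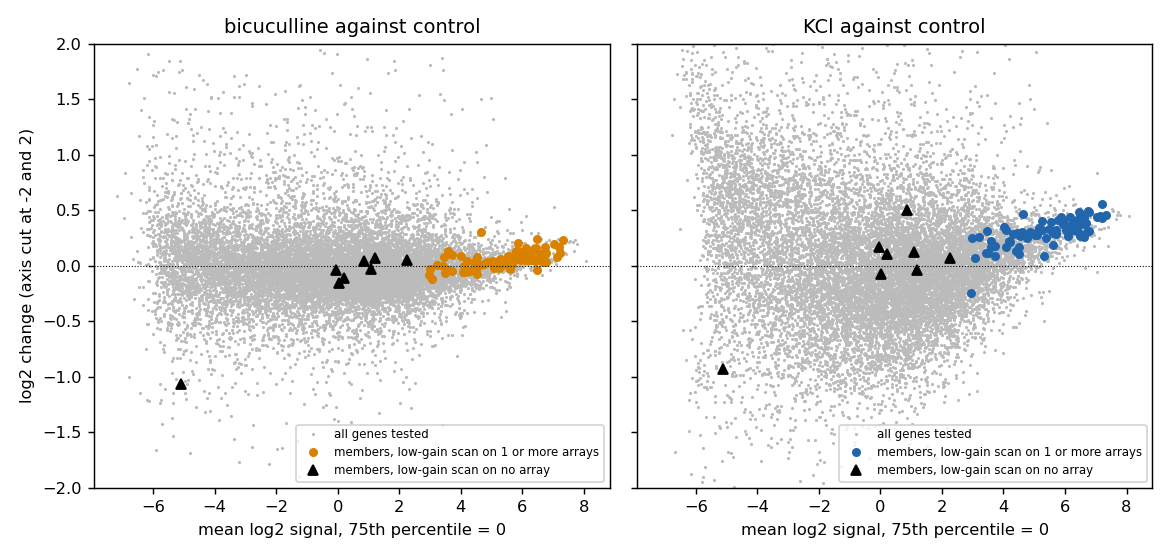
The log2 change of every gene tested (grey) is plotted against its mean log2 signal, for bicuculline on the left and KCl on the right; coloured circles are members read from the low-gain scan on at least 1 array and black triangles the 8 read from it on none. Nearly all members sit at the bright end, where the grey points under KCl also lie mostly above 0.

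Relative to the rest of the array the family stood higher under KCl in every scaling, by amounts that differed. Scaling to the median or the spike-in probes moved the median of all genes to -0.14 and -0.20 under KCl, and changes are best read against that shift. The members' median exceeded that of all genes by 0.28 under the 75th percentile, the median and the spike-in scaling. The excess was 0.11 under quantile normalization, 0.10 under normexp with quantile normalization and 0.04 under normexp with the 75th percentile. Of the 83 members, 47 had a change above 0 in every scaling. Called higher under at least 5 of the 6 scalings were 4 members, Rpl22l1, Rpl37a, Rplp0 and Rps12. Neither of these counts was made over all genes, so they cannot be set against a share of all genes. Slide 1 held only bicuculline and control arrays and slide 3 only KCl 3, so slide and KCl cannot be fully told apart. Within slide 2, the slide that held arrays of all 3 groups, 78 of 83 members were higher under KCl than in control. The median there was 0.29, and 0.02 over all genes. This is 2 KCl arrays against 1 control array and carries no test.

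**Figure D5:**
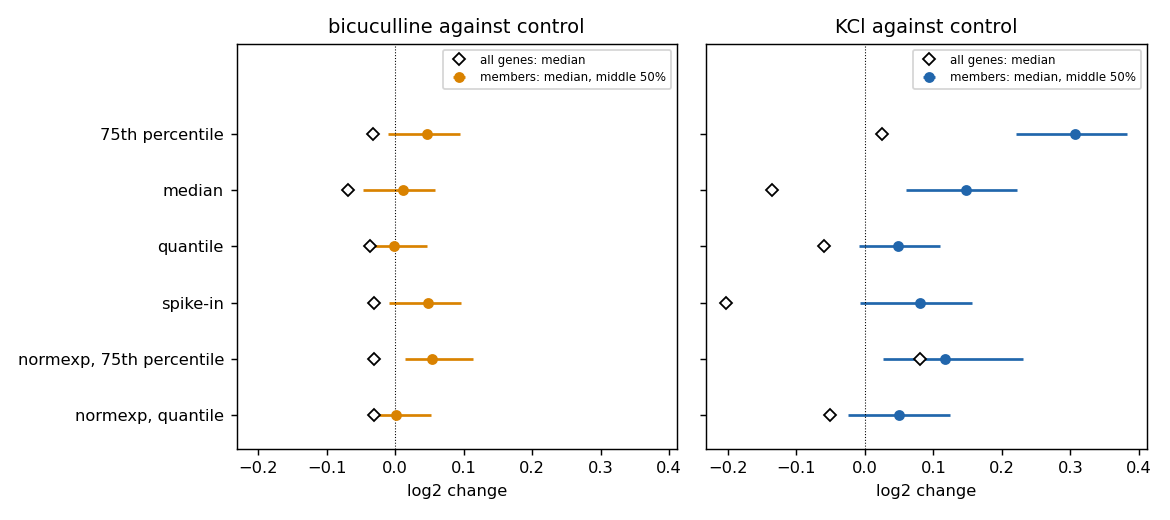
Points give the median log2 change over the members with the range of the middle 50% of members, and open diamonds the median over all genes, under the 6 ways of scaling the arrays, for bicuculline on the left and KCl on the right. Under KCl the members' median lies between 0.05 and 0.31 and is above the diamond each time.

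Members also differed among themselves once the common shift of the family was taken away. With each array scaled to the median of the members, a choice made after seeing the data, 6 members were called higher under KCl, against 14.8% of all genes. These were Rplp0 (0.30, limma, adjusted p = 0.017), Rpl37a (0.24), Rps12 (0.23), Rps20 (0.22), Rpl22l1 (0.21) and Rpl38 (0.17). The 5 called lower than the family were Rps19bp1 (-0.50, limma, adjusted p = 3.6e-04), Rps4l (-0.34), Rpl7l1 (-0.30), Rpl36al (-0.19) and Rpl3l (-1.19). All 5 belong to the 7 genes outside the standard set. Of all genes, 51.5% were called lower on this scale. The scale sets the members' median to 0 on every array, so the shares of all genes in this paragraph follow from that choice. Under bicuculline Rpl22l1 was the member called higher (0.29, adjusted p = 0.015) and 0 were called lower, against 10.5% and 15.1% of all genes.

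The presence of a pyrimidine tract in the promoter window did not separate the core members by their KCl change. The 45 core members with a tract had a median log2 change of 0.31 and 43 were called higher. The 12 without one also had a median of 0.31, with 11 called higher. The annotated start can differ from the start used in these neurons, so a window with no tract says only that these letters are not in it.

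KCl was also set against bicuculline directly, 2 groups whose brightness was more alike. Of the 83 members, 66 were called higher under KCl and 2 lower, with 36.1% and 28.8% of all genes called in these directions. The median log2 difference of KCl minus bicuculline was 0.26, against 0.07 over all genes. The excess of the members over all genes was 0.06 under both quantile settings and turned to -0.02 under normexp with the 75th percentile. Rpl21 (0.46 ± 0.15, limma, adjusted p = 0.027) and Rplp0 (0.44 ± 0.11, adjusted p = 0.0082) differed most. Lower under KCl were Rps19bp1 (-0.16 ± 0.04, adjusted p = 0.0094) and Rpl7l1 (-0.11 ± 0.04, adjusted p = 0.040). Rpl22l1 differed by 0.16 ± 0.06 (adjusted p = 0.032), but this difference turned negative under 4 of the other 5 scalings. For 72 members every KCl array was above every bicuculline array, against 39.6% of all genes, and for 2 every one was below, against 30.5%. Within slide 2, 78 of 83 members were higher in the 2 KCl arrays than in the bicuculline array. The median difference there was 0.25, and 0.06 over all genes. Under median, quantile and spike-in scaling, normexp with the 75th percentile and normexp with quantile normalization, 6, 12, 0, 0 and 11 members were called higher. Of all genes, 17.8%, 26.2%, 9.03%, 7.82% and 24.6% were, so the members' share was below that of all genes in each. Called lower were 2, 3, 2, 0 and 2 members, with 34.6%, 34.7%, 37.2%, 9.49% and 31.7% of all genes, again a smaller share.

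Of the 119 probes taken singly, 95 were called higher and 2 lower under KCl, against 36.8% and 34.4% of all named probes; under bicuculline 2 were called higher and 3 lower, against 18.1% and 24.7%. Between KCl and bicuculline 91 probes were called higher and 3 lower, against 36% and 27.2% of probes. Where a gene had several probes they did not always move together. Among 30 such genes the brightest probe had a higher KCl change than the dimmest in 24. The same count was not made over all genes, so the 24 cannot be set against a share of them. For Rpl21 the dimmer probe changed by 0.0039 ± 0.04 (limma, adjusted p = 0.94) where the brighter changed by 0.50. For Rpl7a, a large-subunit protein gene, 3 probes gave 0.39, 0.20 and -0.05 from the brightest to the dimmest. Its brightest probe read 6.88, 6.90 and 6.99 on the KCl arrays, against 6.42, 6.65 and 6.54 on the control arrays, with no overlap. For Rpl22 the brighter probe gave 0.35 and the other -0.08 ± 0.04 (adjusted p = 0.086). That brighter probe read 4.19, 4.19 and 4.26 on the KCl arrays, against 3.80, 3.94 and 3.85 on the control arrays, and the other read 3.60, 3.67 and 3.59, against 3.74, 3.66 and 3.71. All probes of each of these 3 genes carry the same RefSeq identifier.

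Other genes of translation did not all share the direction of the ribosomal proteins under KCl, and their counts read against the same 35.8% of all genes called higher and 36% called lower, or 17.4% and 27% under bicuculline. Of 25 tested TOP messages that the rule does not take in, 16 rose and 0 fell, with a median log2 change of 0.21. That median was -0.014 under spike-in scaling, where the median of all genes was -0.20. The TOP median exceeded that of all genes by 0.19 under the 75th percentile, median and spike-in scaling. This excess was 0.14 under quantile normalization, 0.10 under normexp with quantile normalization and -0.04 under normexp with the 75th percentile. Under the other 5 scalings between 0 and 6 of them were called higher and between 0 and 4 lower. Of all genes, 13% to 28.1% were called higher there and 16.4% to 44.8% lower. Vim, a TOP message for an intermediate filament protein (0.53 ± 0.10, limma, adjusted p = 0.0016), and Pabpc1, for the poly(A)-binding protein (0.50 ± 0.07, adjusted p = 4.3e-04), rose most and were called under 5 of the 6 scalings. Fau, which encodes a ribosomal protein fused to a ubiquitin-like protein, rose by 0.47 and was called under 3 of the 6 scalings. Under bicuculline 0 of the 25 rose and 2 fell, Eif4b (-0.23) and Eif3k (-0.13).

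Initiation factors were mixed, with 17 called higher and 8 lower of 38 under KCl. Under each of the other 5 scalings more were called lower than higher, such as 7 higher and 11 lower after scaling to the median. All genes leaned the same way there, with 20.9% called higher and 44.8% lower after scaling to the median. The median change of these factors minus that of all genes was 0.08 under that scaling and -0.13 under normexp with the 75th percentile. Eif4e2, a cap-binding homologue of Eif4e (0.89 ± 0.05, limma, adjusted p = 1.5e-06), and Eif1, which guards start-codon choice (0.70 ± 0.06, adjusted p = 1.4e-05), rose, and both were called under all 6 scalings. Eif2a (-0.51) and Eif2b1 (-0.50), for a subunit of the guanine nucleotide exchange factor of initiation, fell under all 6 scalings. Of 14 elongation and termination factors, 8 were called higher and 3 lower. Quantile normalization gave 5 in each direction, beside 28.1% of all genes called higher and 41.8% lower. The other 4 scalings gave more lower than higher, as they did for all genes. The release factor gene Etf1 rose (0.69 ± 0.05, adjusted p = 8.6e-06) and Eef1e1 fell (-0.53 ± 0.03, adjusted p = 1.6e-06), each under all 6 scalings. Under bicuculline, 7 initiation factors were higher and 6 lower, and 3 of the 14 others were called in each direction.

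Genes for assembling the ribosome went mostly the other way under KCl. Of 45 tested chaperones and assembly factors, 24 fell and 10 rose, while 36% of all genes were called lower and 35.8% higher, with a median log2 change of -0.22 that stayed below 0 under all 6 scalings. Rpf2, which brings the small ribosomal RNA of the large subunit into place, read 1.84, 1.87 and 1.95 on the KCl arrays, against 2.64, 2.63 and 2.57 on the control arrays (-0.73 ± 0.04, limma, adjusted p = 1.9e-06). Pno1, a factor of small-subunit maturation, fell by 0.71 on the log2 scale. Nop53 rose, with 1.36, 1.43 and 1.54 on the KCl arrays, against -0.42, -0.43 and -0.29 on the control arrays (1.82 ± 0.05, adjusted p = 7.7e-08). Sbds, which frees the large subunit for joining, rose by 0.86. Under bicuculline 13 rose and 7 fell, beside 17.4% and 27% of all genes, with Nop53 (0.89) and Sbds (0.45) again higher.

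The mitochondrial ribosomal proteins, a separate set of nuclear genes, were mostly lower under KCl. They were taken by symbol alone, beginning with Mrpl or Mrps and a digit, and whether each product sits in that ribosome was not checked. Of 78 tested, 49 fell and 7 rose, beside 36% and 35.8% of all genes, with a median log2 change of -0.19 that was below 0 under all 6 scalings. Mrps31 (-0.86 ± 0.05, limma, adjusted p = 1.6e-06) and Mrpl19 (-0.74 ± 0.05, adjusted p = 4.3e-06) fell most, under all 6 scalings. Mrps36 (0.38) and Mrpl54 (0.37) rose most among the genes so named, under 4 scalings. Under bicuculline 22 fell and 7 rose, with a median of -0.07; the share that fell was near the 27% of all genes.

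Among 33 genes of mTOR, the S6 kinases and Myc, 18 fell and 9 rose under KCl, beside 36% and 35.8% of all genes, with a median of -0.22 that was below 0 under all 6 scalings. Rps6kb1, the S6 kinase that phosphorylates Rps6, read -0.15, -0.21 and -0.28 on the KCl arrays, against 0.68, 0.69 and 0.63 on the control arrays, and is named beyond the rule because it acts on a member. Rps6ka3, an RSK kinase, rose (1.77 ± 0.06, limma, adjusted p = 1.7e-07), and so did Rheb, the GTPase that activates mTOR (1.29 ± 0.05, adjusted p = 2.9e-07). Mxd1, which competes with Myc for Max, fell (-1.10 ± 0.04, adjusted p = 2.4e-07), as did Mycl (-1.05). Under bicuculline 15 fell and 7 rose, beside 27% and 17.4% of all genes, with Deptor, an inhibitor of mTOR, lowest (-1.06 ± 0.04, adjusted p = 9.4e-07) and Rps6ka3 highest (1.25).

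Markers of other cell types moved with KCl as well. The 16 neuronal markers were all tested, and their summed linear signal, in units of the array's 75th percentile, was 211 to 222 on the bicuculline arrays and 223 to 230.4 on the KCl arrays, against 185 to 196 on the control arrays. The 13 astrocyte markers summed to 201 to 202 on the bicuculline arrays and 229.6 to 240.0 on the KCl arrays, against 199.9 to 215 on the control arrays. The 12 tested vascular and fibroblast markers summed to 26.1 to 28.5 on the bicuculline arrays and 45.5 to 50.1 on the KCl arrays, against 26.5 to 27.7 on the control arrays, while Cldn5, Pecam1 and Cdh5 did not pass the filter. The 11 tested microglial markers summed to 5.88 to 8.78 on the bicuculline arrays and 8.49 to 12.9 on the KCl arrays, against 7.00 to 7.43 on the control arrays, and Itgam, Cd68 and P2ry12 did not pass. Oligodendrocyte markers summed to 31.5 to 32.7 on the bicuculline arrays and 37.5 to 38.1 on the KCl arrays, against 32.9 to 34.2 on the control arrays, while Mog did not pass. Cycling markers summed to 38.0 to 38.9 on the bicuculline arrays and 37.8 to 39.4 on the KCl arrays, against 39.8 to 41.0 on the control arrays, and Eomes did not pass. Under KCl 7 of 11 microglial, 8 of 12 vascular, 7 of 11 oligodendrocyte, 6 of 13 astrocyte, 11 of 16 neuronal and 3 of 13 cycling markers were called higher, beside 35.8% of all genes. Called lower were 10 cycling, 3 astrocyte, 2 neuronal, 2 oligodendrocyte, 1 vascular and 0 microglial markers, beside 36% of all genes. These counts and sums depend on the scaling too. The astrocyte markers' median log2 change was 0.09 here and between -0.14 and -0.07 under median, quantile and spike-in scaling and normexp with quantile normalization. That of the neuronal markers was 0.18 here and -0.05 under spike-in scaling. The median of all genes moved as well, from 0.02 here to -0.20 under spike-in scaling. Above it, the neuronal markers' median stood by 0.16 and the astrocyte markers' by 0.06 in both settings. Under normexp with the 75th percentile these differences were -0.04 and -0.06. Under spike-in scaling 1 oligodendrocyte marker was called higher and 3 lower, with 15.6% and 44.7% of all genes. Of the vascular and of the microglial markers, 3 each were called higher there. Under normexp with the 75th percentile 2 vascular, 6 microglial and 3 oligodendrocyte markers were called higher, with 13% of all genes. The medians of these 3 lists stayed above that of all genes in both settings. The part of the markers in the ribosomal protein result was not tested.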

How the data were processed

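The authors deposited Agilent Feature Extraction output for 9 arrays, with the version given as 10.5.1.1 in the submitters' processing notes and as 10.7.3.1 in the headers. The processed signal is an intensity, background-subtracted and detrended within each array per the file headers, with no scaling between arrays. The deposited series values equalled it on all 45018 features of each array. Log2 signals were reduced by each array's 75th percentile of non-control spots, spots marked as outliers were left out, spots of a probe were averaged, and a probe had to lie well above background on all 3 arrays of some group. Symbols came from RefSeq (26888 probes matched, 14286 did not), and the brightest probe stood for each gene. All 9 arrays were fitted with limma 3.58.1 in R 4.3.3 (group only, 2-sided, Benjamini-Hochberg per comparison), a script first tested on simulated data. The small number of arrays limits the precision. Alternatives covered 5 other scalings or backgrounds (normexp offset 50), filters, outlier spots, probe rule, prior, slide, replicate block and leaving out each array. Same-numbered bicuculline and control arrays deviated together (correlations 0.40, 0.26 and 0.74), and replicate number goes with slide there; KCl arrays did not pair with control (-0.19, -0.15 and -0.57). So the replicate block is given beside the bicuculline results.

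Results of 2 genes are not reported here. Members, gene lists and tests were chosen with earlier results of these data known. Array values are given for the 5 largest called changes in each direction, paralogs, stalk genes, Rpsa and the 3 genes whose probes differ most. Most are for the KCl and control arrays alone, and those of Rps4l and Rpl14 for the bicuculline and control arrays. Lists give their 2 largest called changes in each direction.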

Additional observations from a re-analysis of the deposited data

How the results depend on the processing

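Scaling decided most counts. Under median, quantile and spike-in scaling, normexp with the 75th percentile and normexp with quantile normalization, in that order, KCl against control had 21, 19, 6, 0 and 12 members higher, 3, 5, 4, 1 and 4 lower, and medians of 0.15, 0.049, 0.080, 0.12 and 0.050. KCl against bicuculline had 6, 12, 0, 0 and 11 higher, 2, 3, 2, 0 and 2 lower, and medians of 0.13, 0.045, 0.028, 0.067 and 0.043. Bicuculline against control had 1, 5, 1, 0 and 1 higher and 1, 3, 0, 0 and 1 lower. Over probes these settings gave, for KCl against control, 23, 23, 6, 0 and 16 higher and 6, 7, 8, 1 and 8 lower. For KCl against bicuculline they gave 7, 19, 0, 0 and 14 higher and 5, 5, 6, 0 and 5 lower. For bicuculline at most 2 were higher, with 1, 0, 0 and 1 lower under median, spike-in and both normexp settings. The shares of all probes called under these settings are not given, so the probe counts cannot be set against them. The same holds below for gene and probe counts with a changed block, prior, filter or probe rule, or without an array.
Without members in the brightest 1% of probes, 28 of 37 were higher under KCl (median 0.22) and 28 against bicuculline. In alternatives added after seeing the data, the 8 members without low-gain spots gave 4 higher, 0 lower and a median of 0.089 under KCl, 4 higher, 1 lower and 0.14 against bicuculline, and 0 higher with -0.032 under bicuculline. Control 2 as the only control array gave a median of 0.21 under KCl and of -0.049 under bicuculline. The fit marked 39 members higher under KCl there, but this count rests on 1 control array and is not read as a test. The share of all genes so marked is not given, so the 39 cannot be set against it. Scaled to the members' median, KCl had 6 higher and 5 lower against control and 0 higher against bicuculline, and bicuculline had 0 lower.
Slide as a block left 0 lower members and 58 higher probes for KCl against bicuculline. The replicate block left 1 lower member there and 1 lower probe under bicuculline, and 2 members higher and 0 lower in the 6 arrays alone; it changed KCl against control from 73 to 72 higher, with 1 lower. Under bicuculline 2 members were higher with the mean of all probes and with a trended prior, where 4 probes were higher; without the dim filter 1 probe was higher and 1 lower.
Leaving out each array in turn gave 60 to 73 higher and 1 to 2 lower under KCl (median 0.26 to 0.36; probes 77 to 94 and 2 to 3), 54 to 66 and 1 to 2 against bicuculline (0.23 to 0.27; probes 72 to 91 and 2 to 3), and 1 to 13 and 0 to 2 under bicuculline (-0.0090 to 0.093; probes 1 to 16 and 0 to 4), with the 13 reached without control 2.
Over all 83 members, 47 stayed above 0 under KCl in every scaling, a count that was not made over all genes. Of the members recomputed singly under every alternative, those that turned in sign under KCl were Rpsa (median -0.049, quantile -0.093, spike-in -0.12, normexp -0.12 and -0.13, members' median -0.15), Rpl14 (median -0.053, spike-in -0.12, members' median -0.15), Rpl36al (-0.089, -0.16 and -0.19 under these), Rps27l (spike-in -0.0047, members' median -0.038), Rpl3l (normexp with the 75th percentile 0.62) and Rpl7l1 (normexp with quantile 0.030, mean of probes 0.0013). Rpl22l1 turned in KCl against bicuculline (quantile -0.031, spike-in -0.065, normexp -0.038 with either scaling, members' median -0.086). The cause was not tested. Signal over background limits Rpl39l, which was not tested, and Rpl3l, which lay near the bottom of the range.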
